A study of Solanum lycopersicum with 12 samples.

Results

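Fruits of a red tomato (No. 20) were compared with fruits of a yellow tomato (No. 19) at color break, 40 days after anthesis, when ripening starts. The comparison used 6 of the 12 mRNA libraries of the series, 3 of the red and 3 of the yellow line, chosen by their labels alone. The other 6 libraries, 3 of each line taken 55 days after anthesis at maturity, served as a second look at the same line difference. Both lines are labelled Solanum lycopersicum and the tissue is given only as fruits. No treatment, transgene or mutant allele is named for any group, and the origin of the replicates (separate plants or not), any pooling of fruits and any removal of seeds are not stated. The p-values therefore measure the spread between these libraries, which may be technical, and since whole tissue was sequenced, fewer cells of a type and less RNA per cell cannot be told apart.

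At color break a tomato fruit stops being green: chloroplasts are converted to chromoplasts, chlorophyll and the photosynthetic complexes are dismantled, carotenoids accumulate and ethylene synthesis rises. Cell division has ended in most of the flesh by then, the seeds are completing their own maturation under abscisic acid, and wall enzymes begin to soften the tissue. A ripening fruit also changes its defences, among them chitinases and glucanases, which act on fungal walls, and inhibitors of digestive proteases.

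Total counts per library ran from 50963462 to 60854667, and the coefficient of variation between replicates was 0.0869. Of 24215 genes in the deposited table, 15974 had an FPKM (fragments per kilobase, per 1e6 mapped) of at least 1 in at least 3 of the 12 libraries and were tested. Calls needed a change of at least 1 on the log2 scale, in either direction, and a p under 0.05 from edgeR's quasi-likelihood test after Benjamini-Hochberg adjustment. One library, replicate 1 of red at maturity, stood apart from its group, with a chi-square per degree of freedom of 34.9 and 33.06 against the other two, which gave 12.42 between themselves. The 9 pairs within the other groups gave 5.37 to 8.66, so no 2 libraries agreed within sampling noise. Ripening genes were expressed in both groups. PSY1, the fruit's own phytoene synthase at the entry to carotenoids, stood at 1398, 1374 and 1424 FPKM in yellow and 2698, 2661 and 2555 in red. It differed by less than the minimum change (log2 fold change 0.91). ACS2 and ACO1, which make the ethylene precursor and ethylene, were not called (-0.54 and 0.25), and neither was PG2, the main polygalacturonase of the ripe fruit (-0.01, 4325 to 4551 FPKM in yellow and 4248 to 4573 in red). The ACS2 values still lay apart, at 425.6 to 454.7 FPKM in yellow and 295.1 to 312.0 in red. Without a minimum change PSY1, ACS2 and ACO1 passed edgeR's adjusted p (1.44e-12 for PSY1 and 1.52e-07 for ACS2). Another gene described as an oxidase of the ethylene precursor, Solyc02g036350, was called. It was at 24.0, 23.8 and 23.6 FPKM in yellow and 107.4, 103.9 and 100.5 in red (2.13 ± 0.10, adjusted p = 1.85e-09).

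At color break edgeR called 991 genes (6.20% of those tested), 658 higher in red (4.12%) and 333 lower in red (2.08%). Of the called genes, 66.4% were higher in red, and the median log2 fold change over all genes tested was 0. In 983 of the 991 the 3 red and the 3 yellow FPKM values did not overlap, which was also so for 56.1% of all genes tested. A difference of 4-fold or more was seen in 227 of the calls, 152 of them higher in red and 75 lower. Of the 991, 106 had an FPKM of at least 1 only in the 3 libraries of the group where they were higher, so they entered the test through that group alone. Without a minimum change, 6632 genes (41.5%) passed the adjusted p.

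The functions below are 46 lists of genes matched by words of the gene symbol, description or GO terms of the deposited table, besides all GO terms with 15 to 300 tested genes. A symbol, description or GO term was given for 12215 of the tested genes and for 726 of the called ones, and 253 of the called genes were in at least 1 list. The flavonoid list, 13 genes of which 7 were higher in red and none lower, is set aside here. A gene can be in several lists and is then counted in each. Each list's count is to be read against the shares over all genes, 4.12% higher and 2.08% lower.

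**Figure D1:**
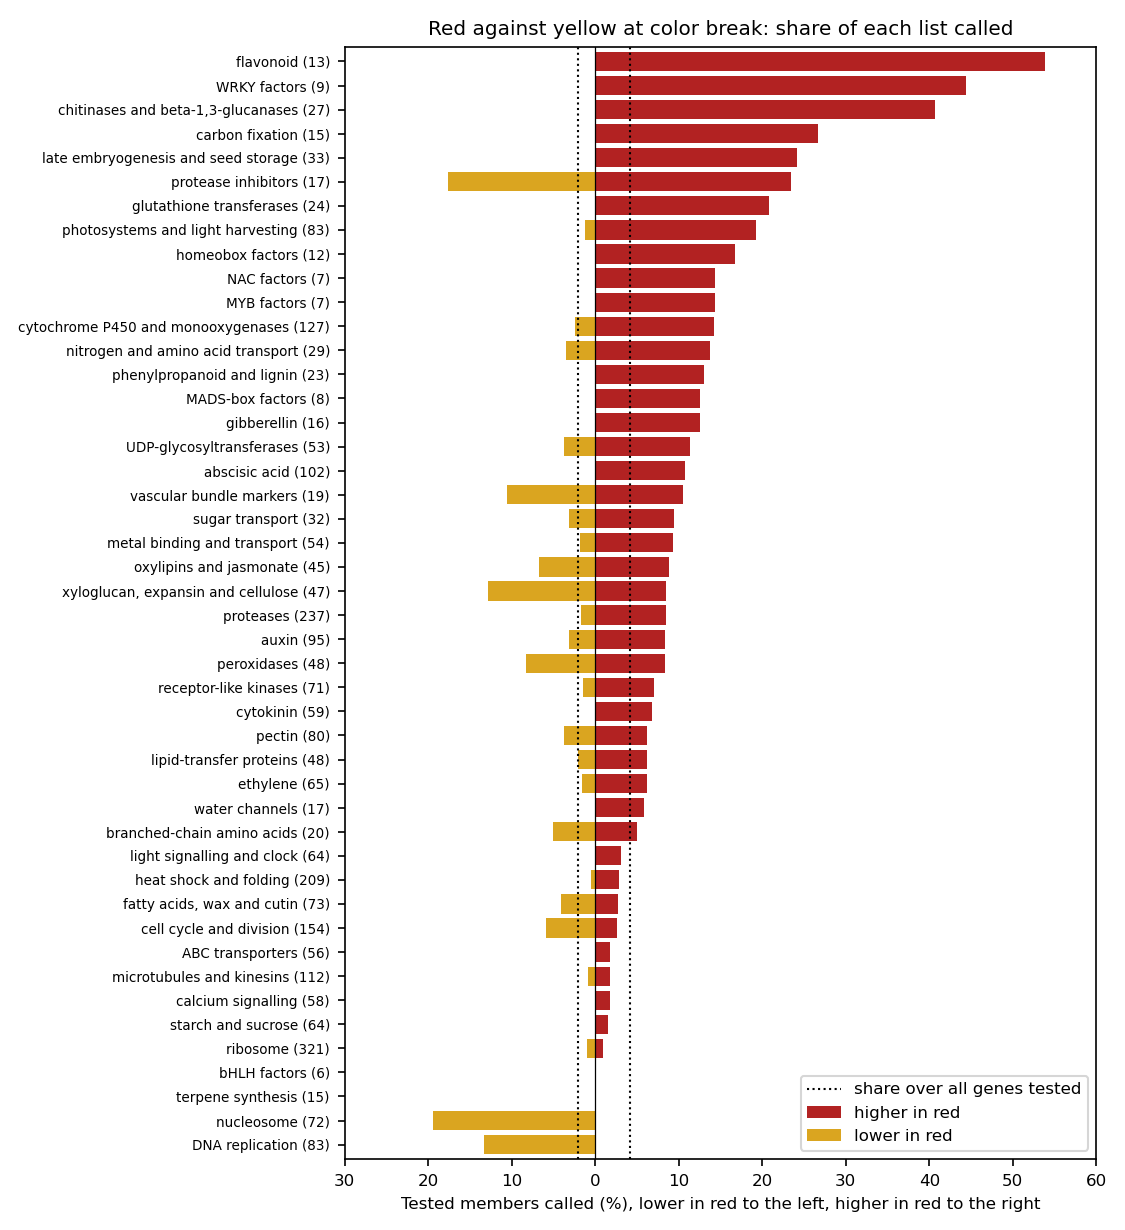
Percentage of the tested members of each list called higher in red (bars to the right) or lower in red (bars to the left) at color break, with the number of tested members in brackets. The dotted lines mark the shares over all genes tested, 4.12% and 2.08%; WRKY factors, chitinases and glucanases, and seed genes extend to the right, and nucleosome and DNA replication genes to the left only.

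Genes that act on chitin and beta-1,3-glucan, the polymers of fungal walls, were among the most different. Of 27 tested members of that list, 11 were higher in red, none was lower and 16 were not called, with a median log2 fold change of 0.64. Summed over the 37 genes of the list in the table, the level was 610 to 631 FPKM in the yellow libraries and 4037 to 4151 in the red ones. In red, most of that sum came from a few short genes annotated with chitin binding, while in yellow the glucanase gene Solyc04g016470 alone held more than they did. Solyc10g017970 (chromosome 10, 6216085 to 6216267) stood at 127.7, 113.5 and 108.5 FPKM in yellow and at 2171, 2144 and 2229 in red. It was 18.7-fold higher in red (log2 fold change 4.22 ± 0.18 SE, adjusted p = 5.21e-10). Its neighbour on the chromosome, Solyc10g017980 (6240974 to 6241165), was at 17.6, 12 and 17.9 FPKM in yellow and 725.6, 711.4 and 739.4 in red, or 45.2-fold higher (5.50 ± 0.20, adjusted p = 9.52e-11). Every red library lay far above every yellow one for both genes. Another gene with the same annotation, Solyc07g009530 on chromosome 7, was at 2.97, 0.863 and 2.08 FPKM in yellow and 142.8, 140.8 and 149.4 in red (6.14 ± 0.33, adjusted p = 5.38e-09). Reads may be shared among these short genes of 1 family, so their separate levels are uncertain.

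Called enzymes of the list were higher in red as well. Solyc10g055800, with chitinase activity, was at 0.546, 0.622 and 0.461 FPKM in yellow and 8.71, 9.23 and 10.4 in red (4.11 ± 0.11, adjusted p = 3.63e-12). The acidic endochitinase CHI3 was 4.24-fold higher, at 8.47 to 10.1 FPKM in yellow and 36.2 to 42.6 in red. Among glucanases, which cut beta-1,3-glucan, the abundant Solyc04g016470 was at 203.0, 201.2 and 204.5 FPKM in yellow and 664.1, 663.5 and 644.6 in red (1.70 ± 0.06, adjusted p = 6.32e-11). Glucan endo-1,3-beta-glucosidase B (Solyc01g059965) was at a mean of 0.12 FPKM in yellow and 3.39 in red (4.74 on the log2 scale). In each of these genes the groups did not overlap, as in 983 of the 991 called genes.

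The largest rise among annotated genes of at least 5 FPKM outside the flavonoid list was in Solyc09g007020 (chromosome 9, 685115 to 691709), an extracellular product annotated with defence against fungi. It was nearly silent in yellow, at 0.27, 0.119 and 0.16 FPKM, and stood at 24.7, 26.2 and 26.6 in red, 135-fold higher (7.08 ± 0.38, adjusted p = 5.55e-09). Solyc10g075150, annotated with lipid binding and transport, followed at 0.149, 0 and 0.0723 FPKM in yellow and 9.14, 11.6 and 9.17 in red (6.96 ± 0.38, adjusted p = 6.62e-09). Over the GO term for defence against fungi, 9 of 36 tested genes were higher in red and 1 was lower (25.0% and 2.78%).

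WRKY factors bind DNA and are best known, from Arabidopsis, as regulators of defence and senescence. Of 9 tested WRKY genes 4 were higher in red and none lower, with a median of 0.94. The gene described as WRKY75 (Solyc05g015850) was at 0.37, 0.298 and 0.592 FPKM in yellow and 5.46, 5.84 and 4.76 in red, 12.3-fold higher (3.62 ± 0.33, adjusted p = 1.35e-06). WRKY3 (Solyc09g015770) was at 7.63 to 8.67 FPKM in yellow and 23.8 to 26.8 in red (1.68 ± 0.08, adjusted p = 3.23e-09). The other 2 were Solyc01g095630 (3.09 ± 0.40) and Solyc02g093050, described as a probable WRKY15 (1.59 ± 0.23). Solyc01g095630 reached 1 FPKM only in the 3 red libraries at color break, so it entered the test through that group alone. With a minimum of 5 FPKM in 3 libraries 1 WRKY gene was called.

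Inhibitors that block proteases, a class of wound and defence proteins, went both ways. Of 17 tested inhibitor genes 4 were higher in red and 3 lower. The serine protease inhibitor gene Solyc08g080630 was at 36.9, 33.3 and 31.2 FPKM in yellow and 175.4, 170.0 and 175.5 in red (2.36 ± 0.12, adjusted p = 2.54e-09), and the cysteine protease inhibitor gene Solyc12g098615 was 4.05-fold higher (2.02 ± 0.33, adjusted p = 0.00025). A pair of neighbouring serine protease inhibitor genes on chromosome 9 differed in opposite directions. Solyc09g084450 (69548543 to 69550251) held 0, 0 and 0 counts in yellow and 201, 195 and 134 in red. That is at least 175.9-fold higher when yellow is set to a floor of 3 counts over the group. At maturity this gene held 0, 0 and 60 counts in yellow and 13, 10 and 8 in red and was not called, so its zeros varied within a group. Solyc09g084460 (69553041 to 69554808) held 24, 47 and 37 counts in yellow and 4, 0 and 0 in red (adjusted p = 0.000263), and was not called with limma on log2(FPKM + 1). Where the 2 genes are alike in sequence, reads may have been divided between them differently in the 2 lines. Proteases themselves, with the inhibitors left out, had 16 of 224 members higher in red and 3 lower, or 20 and 4 of 237 with the inhibitors that the list also holds.

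**Figure D2:**
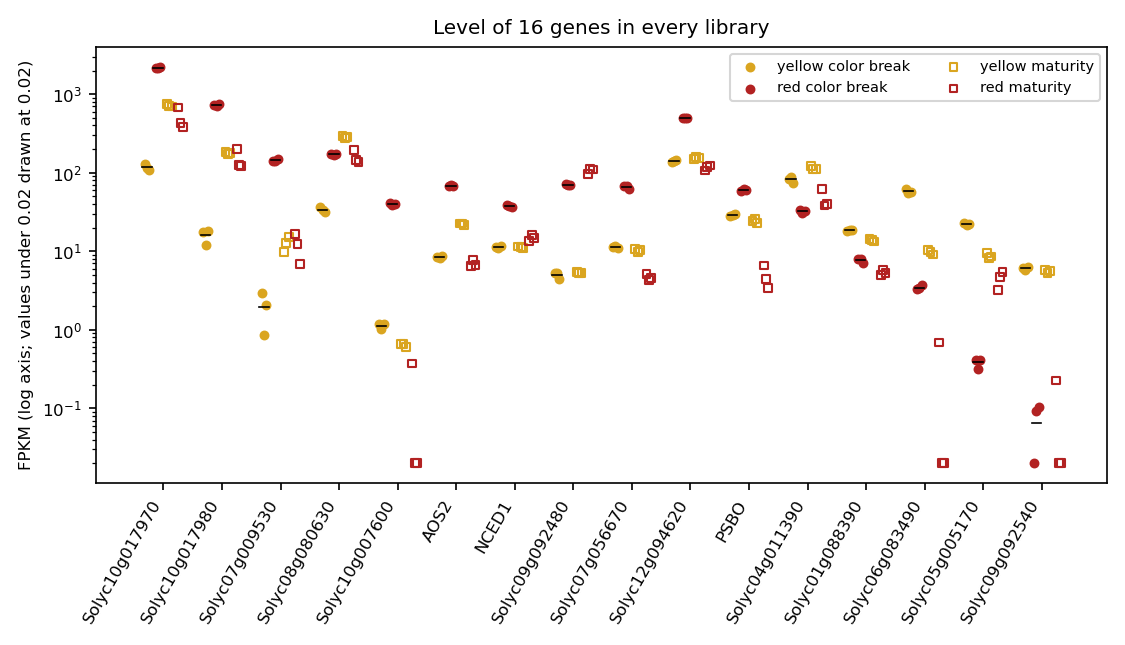
FPKM in every library for 16 genes (log axis, with values under 0.02 drawn at 0.02). Filled circles are the 3 libraries of each line at color break with a bar at their mean, and open squares the libraries at maturity. At color break the red and yellow circles do not overlap for any of the 16 genes. The rule for naming genes asked for this, and 56.1% of all genes tested met it. Some of the 16, PSBO and Solyc04g011390 among them, were not named by the rule but chosen after their values were seen.

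A pair of peroxisomal genes of peroxide metabolism were among the larger differences. Solyc10g007600, annotated with FMN binding and the synthesis of hydrogen peroxide, was at 1.17, 1.03 and 1.2 FPKM in yellow and 40.6, 39.4 and 40.3 in red, 35-fold higher (5.13 ± 0.31, adjusted p = 1.84e-08). Solyc12g094620, with catalase activity, which breaks hydrogen peroxide down, was at 138.7, 139.2 and 143.2 FPKM in yellow and 504, 498.1 and 500.8 in red (1.83 ± 0.04, adjusted p = 1.2e-12). Other peroxidase genes had no common direction, with 4 higher and 4 lower of the 48 in the list, catalase included. All 5 calls among 24 glutathione transferase genes, which attach glutathione to reactive compounds, were higher in red.

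Among hormone genes, calls in the abscisic acid list all lay on the red side, 11 of 102 higher and none lower, while its median was 0.03. Abscisic acid drives seed maturation and, in tomato, promotes the start of ripening. A gene each of its synthesis, breakdown and storage was higher in red. NCED1, which cleaves carotenoids toward the hormone, was at 11.5, 11 and 11.6 FPKM in yellow and 38.7, 37.5 and 36.2 in red (1.72 ± 0.06). CYP707A2, the hydroxylase that breaks abscisic acid down, was at 1.95, 1.84 and 2.21 FPKM in yellow and 7.49, 8.47 and 6.86 in red (1.92 ± 0.14, adjusted p = 1.14e-07). Solyc09g092480 (chromosome 9, 72036747 to 72046299), a glycosyltransferase annotated with abscisic acid glucosylation, which turns the hormone into an inactive glucose ester, was at 5.24, 5.23 and 4.43 FPKM in yellow and 70.9, 69.5 and 68.8 in red. It was 14-fold higher (3.81 ± 0.07, adjusted p = 7.11e-14). At maturity 5 of the 11 were lower in red and Solyc09g092480 was higher again (4.17 ± 0.07).

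Gibberellin, auxin and jasmonate genes gave single large differences. Gibberellin 2-oxidase 2 (Solyc07g056670), of the enzyme class that inactivates gibberellins, was at 11.5, 11.8 and 10.9 FPKM in yellow and 68.1, 68.7 and 62.0 in red (2.54 ± 0.07, adjusted p = 4.47e-12), and was 1 of 2 calls among 16 gibberellin genes. The other call was NCED1, which its GO terms also place in the auxin list. In the auxin list 8 of 95 were higher and 3 lower. An auxin efflux carrier gene (Solyc05g008060) was at 1.75 to 2.11 FPKM in yellow and 10.6 to 11.1 in red (2.51 ± 0.08, adjusted p = 2.54e-11). In the other direction, Solyc06g073050, described as an ILR1-like hydrolase, a class that frees auxin from its amino acid conjugates, was at 145.8, 154.1 and 151.6 FPKM in yellow and 47.1, 45.2 and 47.2 in red (-1.70 ± 0.04, adjusted p = 1.27e-12). AOS2, the allene oxide synthase at the entry to jasmonate synthesis, was at 8.36, 8.33 and 8.83 FPKM in yellow and 67.3 to 70 in red, 8.04-fold higher (3.01 ± 0.06, adjusted p = 1.49e-13). Among all 45 oxylipin and jasmonate genes 4 were higher and 3 lower. Of the 3, the lipoxygenase gene Solyc01g099180 had 1 outlying yellow library, at 4.03, 3.5 and 17.7 FPKM in yellow and 2.36, 2.53 and 2.18 in red. The lower ones also included the abundant Solyc01g006540, at 841.1, 839.5 and 846.4 FPKM in yellow and 196.8, 191.6 and 191.4 in red. It was 4.36-fold lower in red (-2.12 ± 0.03, adjusted p = 8.9e-15) and lower again at maturity (-1.26 ± 0.03). Cytokinin genes gave 4 higher and none lower of 59, and ethylene genes 4 higher and 1 lower of 65.

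Called genes of the photosynthetic complexes were nearly all higher in red. Of 83 tested genes of photosystems and light harvesting, 16 were higher in red and 1 was lower, with a median of 0.35. The GO term photosystem I had the highest share of any of the 440 terms ranked, 11 of 21 genes higher and none lower (52.4%). Response to light stimulus followed with 10 of 26, photosystem II had 9 of 30 higher and 1 lower, and thylakoid 12 of 50 higher; these terms share genes. Solyc06g082940, a subunit of the photosystem I reaction center, was at 1.27, 1.56 and 0.74 FPKM in yellow and 6.05, 6.59 and 5.05 in red (2.30 ± 0.35, adjusted p = 0.000147). The core subunit gene psaD was at 11 to 13.8 FPKM in yellow and 27.0 to 29.6 in red (1.22 ± 0.13, adjusted p = 6.31e-06). The psaK gene Solyc08g006930 was at 1.08 to 1.87 FPKM in yellow and 4.81 to 7.13 in red (2.04 ± 0.52, adjusted p = 0.00625), and was not called with DESeq2.

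Photosystem II genes moved likewise. PSBO, which stabilises the cluster that splits water, was at 27.9, 28.9 and 29.7 FPKM in yellow and 58.5, 62.9 and 60.1 in red (1.07 ± 0.14, adjusted p = 3.38e-05). Solyc02g079950, another protein of the oxygen-evolving complex, was 2.89-fold higher (1.53 ± 0.14, adjusted p = 1.46e-06). The single member that was lower in red encodes an early light inducible protein (Solyc09g082690), a class of pigment-binding proteins linked to protection from light, at 160.6, 162.1 and 154.4 FPKM in yellow and 75.7, 76.1 and 74.8 in red (-1.07 ± 0.05, adjusted p = 2.53e-09). Summed over the 125 genes of the list the level was 1672 to 1763 FPKM in yellow and 2106 to 2152 in red, with no overlap. At maturity 12 of the 16 were lower in red. With a minimum of 5 FPKM in 3 libraries 10 were called, and for photosystem I 6 were, or 7 with limma on log2(FPKM + 1).

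Carbon fixation gave 4 calls in 15 genes, all higher in red. Among them was a phosphoenolpyruvate carboxylase gene described as PPC4 (Solyc04g006970), of an enzyme that adds carbon dioxide to phosphoenolpyruvate and feeds organic acid synthesis. It was at 9.03, 8.95 and 8.79 FPKM in yellow and 25.5, 27.4 and 26.2 in red (1.56 ± 0.05, adjusted p = 2.15e-11).

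All called genes of seed maturation were higher in red, though most of the list was not called. Late embryogenesis proteins, oleosins of oil bodies and storage proteins mark the seed, and 33 of the 43 genes of that list were tested. Of these 8 were higher in red, none was lower and 25 were not called, the median was 0.57, and 30 of 33 had a positive log2 fold change. Solyc09g082350, annotated as a nutrient reservoir protein, was at 5.05, 3.44 and 5.41 FPKM in yellow and 15.8, 13.2 and 10.4 in red (1.49 ± 0.32, adjusted p = 0.00211). The oil body genes Solyc06g069260 (1.40 ± 0.33, adjusted p = 0.00352) and Solyc03g119820 (1.18 ± 0.23, adjusted p = 0.000829) were 2.64-fold and 2.27-fold higher. The 4 genes described as oleosin were not called, at log2 fold changes of 0.20, 0.25, 0.79 and 0.91. With limma on log2(FPKM + 0.1), 5 of the 33 were called, Solyc03g119820 not among them.

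The summed level of the seed list was 2325 to 2510 FPKM in yellow and 3622 to 3814 in red, and 924 to 936 and 925 to 968 at maturity; 1 of the 43 genes was at 0 throughout each color break group. In the tested seed genes, 17 of 33 were lower in red at maturity and none was higher, with a median of -2.05, although the sums overlapped. At color break the seed sums were higher in red beside the photosystem and abscisic acid calls, and their part in those results was not tested. Vascular bundle genes summed to 445 to 457 FPKM in yellow and 410 to 415 in red, with 10 of 53 genes at 0 in each group, and 2 were higher and 2 lower of 19 tested. Genes of fatty acids, wax and cutin, which include those of the fruit epidermis, summed to 11904 to 12438 FPKM in yellow and 7994 to 8183 in red, and at maturity to 10533 to 10834 and 13977 to 16772. At color break 2 of the 73 tested were called higher and 3 lower. The part of differing tissue shares in the other results was not tested.

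**Figure D3:**
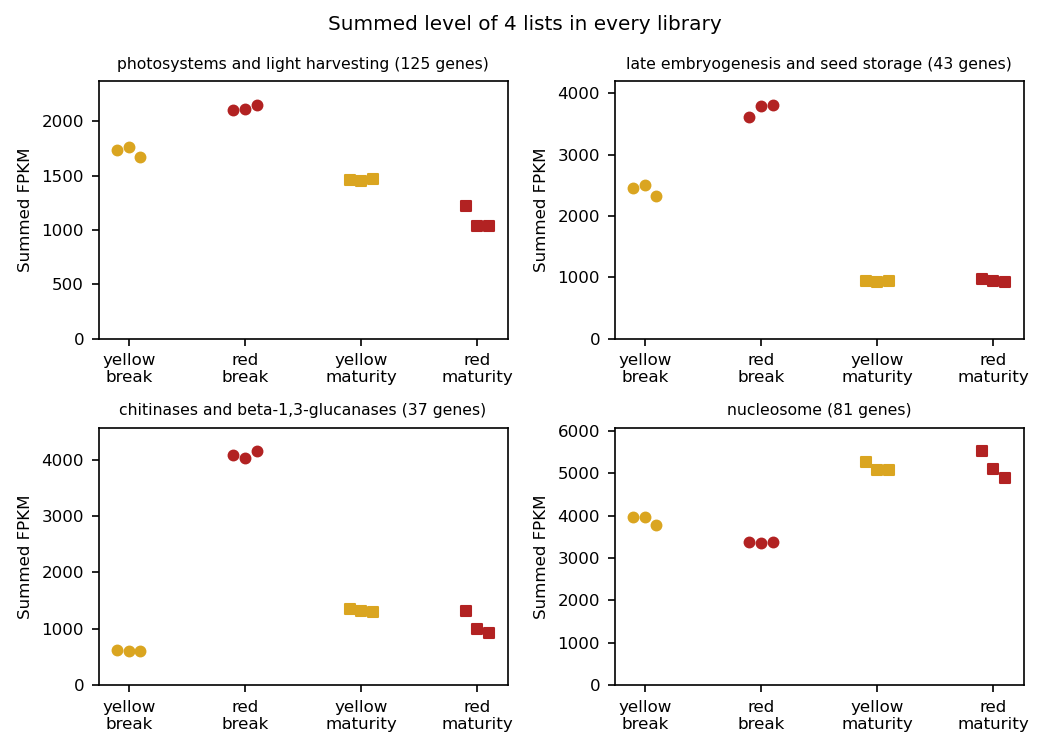
Summed FPKM of 4 lists in each of the 12 libraries, as 1 point per library, by line and stage; each axis starts at 0. At color break red lies above yellow for photosystem, seed and chitin-related genes and below it for nucleosome genes, and at maturity the seed sums of the lines overlap while the photosystem sums of red lie below those of yellow.

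Genes that copy and package DNA had calls on the lower side alone. Of 72 tested nucleosome genes none was higher and 14 were lower in red, with a median of -0.27, and of 83 DNA replication genes none was higher and 11 were lower, with a median of -0.22. Among GO terms the structural constituents of chromatin led with 8 of 21 lower (38.1%), followed by replication initiation and nucleosomal DNA binding with 5 of 15 each. A histone H4 gene (Solyc04g011390, chromosome 4, 3865699 to 3866010) was at 83.6, 88.2 and 74.3 FPKM in yellow and 33.3, 30.3 and 32.9 in red, 2.55-fold lower (-1.35 ± 0.15, adjusted p = 1.01e-05). Histone genes are near copies of each other, so reads may be shared within the family. The largest nucleosome difference was in Solyc02g021350, annotated with nucleosome assembly, at 5.41, 5.1 and 5.58 FPKM in yellow and 0.581, 0.439 and 0.339 in red (-3.55 ± 0.15, adjusted p = 6.19e-10).

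On the replication side, Solyc01g088390, annotated with a clamp loader complex that acts in sister chromatid cohesion, was at 18.3, 18.7 and 18.8 FPKM in yellow and 7.88, 8.08 and 7.07 in red (-1.27 ± 0.06, adjusted p = 2.75e-09). Subunit 6 of the origin recognition complex (Solyc05g007450), which marks where replication starts, was at 2.42 to 3.11 FPKM in yellow and 0.911 to 1.2 in red (-1.35 ± 0.18, adjusted p = 3.28e-05), and was not called with limma on log2(FPKM + 1), at -0.85. Solyc01g066613, also annotated with replication, was at 2.86, 3.53 and 3.76 FPKM in yellow and 0, 0.0488 and 0 in red (adjusted p = 3.82e-07). It reached 1 FPKM only in these 3 yellow libraries, so it entered the test through the group where it was higher. Broader cell cycle and division genes had 4 higher and 9 lower of 154. The replication genes stood at low levels: 2 were called lower with a minimum of 5 FPKM in 3 libraries, and 2 with limma on log2(FPKM + 1). The nucleosome list summed to 3778 to 3960 FPKM in yellow and 3359 to 3387 in red, and DNA replication to 868 to 888 and 749 to 772. At maturity the nucleosome sums overlapped (5073 to 5265 in yellow and 4888 to 5520 in red), and those of DNA replication were higher in red (822 to 830 and 881 to 926).

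Cell wall genes differed singly and in both directions. Among 80 pectin genes 5 were higher and 3 lower, and among 47 genes of xyloglucan, expansins and cellulose 4 were higher and 6 lower. A polygalacturonase gene (Solyc05g005170, chromosome 5, 159158 to 162275), of the class that cuts the pectin backbone, was at 22.9, 21.7 and 22.4 FPKM in yellow and 0.415, 0.321 and 0.419 in red, 57.5-fold lower (-5.85 ± 0.18, adjusted p = 2.15e-11). A pectate lyase gene (Solyc09g091430) was at 12.9 to 14.1 FPKM in yellow and 49.2 to 52.0 in red (1.88 ± 0.08, adjusted p = 3.49e-10). The xyloglucan enzymes, which cut and rejoin hemicellulose chains, included Solyc09g092520 at 1.86 to 2.54 FPKM in yellow and 12.9 to 15.6 in red (2.74 ± 0.12, adjusted p = 5.48e-10) and XTH1, 3.23-fold higher in red. In the other direction, the enzyme gene Solyc05g005680 was at 5.32 to 6.2 FPKM in yellow and 1.31 to 1.91 in red (-1.82 ± 0.16, adjusted p = 9.33e-07). Their GO term, xyloglucan metabolism, had 2 of 16 higher and 4 lower.

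Among enzymes of secondary metabolism and transporters most genes were not called. Cytochrome P450 and monooxygenase genes had 18 higher and 3 lower of 127, with 106 not called and a median of 0.12. The 18 include AOS2 and CYP707A2 and, through its GO terms, the Rubisco small chain gene RBCS-2A, which is also counted under carbon fixation. They also include Solyc03g115220, 9.35-fold higher in red. It is described as TT7, a name from the flavonoid pathway, but was not in the flavonoid list. Glycosyltransferases had 6 higher and 2 lower of 53. The glycosyltransferase gene Solyc09g059170 was at 1.76, 1.25 and 1.78 FPKM in yellow and 22.8, 22.9 and 22.8 in red (3.83 ± 0.15, adjusted p = 1.71e-10). Nitrogen and amino acid transport gave 4 higher and 1 lower of 29, with the amino acid transporter gene Solyc04g077050 at 0.877 to 1.13 FPKM in yellow and 5.36 to 6.11 in red (2.54 ± 0.23, adjusted p = 1.23e-06). Of 17 water channel genes the single call was Solyc06g072130, at 15.7 to 17.4 FPKM in yellow and 44.1 to 44.6 in red (1.44 ± 0.29, adjusted p = 0.00108), and it was not called with limma on log2(FPKM + 0.1). Metal binding and transport had 5 higher and 1 lower of 54, sugar transport 3 and 1 of 32, and phenylpropanoid and lignin genes 3 and 0 of 23. Of the phenylpropanoid calls, Solyc03g097030 is also in the flavonoid list.

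Other large groups held few calls. Of 321 ribosome genes 3 were higher and 3 lower, among the latter the large subunit gene Solyc09g090610 at 130.3, 148.1 and 116.4 FPKM in yellow and 32.0, 37.0 and 39.0 in red (-1.87 ± 0.17, adjusted p = 1.39e-06). Heat shock and folding genes had 6 higher and 1 lower of 209, microtubules and kinesins 2 and 1 of 112, starch and sucrose 1 and 0 of 64, light signalling and the clock 2 and 0 of 64, calcium signalling 1 and 0 of 58, and ABC transporters 1 and 0 of 56. Receptor-like kinases had 5 higher and 1 lower of 71, lipid-transfer proteins 3 and 1 of 48, and branched-chain amino acids 1 and 1 of 20. Homeobox factors had 2 of 12 higher, and MYB, NAC and MADS-box factors 1 each of 7, 7 and 8, with none lower. The MYB gene called is described as MYB12 (Solyc01g079620) and is also in the flavonoid list. No terpene synthesis gene of 15 and no bHLH factor of 6 was called by edgeR, and 8 and 4 of them had an unadjusted p under 0.05.

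A few genes were on in 1 line and nearly off in the other, with at least 1 FPKM in all 3 libraries of a line and under 0.1 in all 3 of the other. There were 9 such genes in red and 9 in yellow, of which 4 and 3 carry any annotation. Among those on in red, 4 of 9 lay on chromosome 9, against none of the 9 on in yellow. Chromosome 9 holds 1158 of the 15974 genes tested, and the position of these small sets was not tested. Solyc09g089550 (chromosome 9, 69728203 to 69732732), which has no annotation, was at 0.0149, 0.0407 and 0.0508 FPKM in yellow and 7.21, 7.49 and 8.43 in red (7.58 ± 0.23, adjusted p = 1.5e-11), and at 6.87 ± 0.20 on the log2 scale at maturity. The neighbours Solyc05g010367 and Solyc05g010380 on chromosome 5 (4521611 to 4523184 and 4523947 to 4524123) were both higher in red, by 5.21 ± 0.17 and 5.89 ± 0.63. They were higher again at maturity, by 5.17 ± 0.18 and 5.22 ± 0.60. Of these sets, 4 genes on in red and 2 on in yellow had the same call at maturity, and 1 on in red and 3 on in yellow had the opposite call. These counts are uncertain. At maturity 4 genes on in red and 5 on in yellow were at 0 in some but not all libraries of a line. Some calls at maturity also rest on values near 0, such as Solyc01g066613 at 0.0278, 0.0271 and 0.0387 FPKM in yellow and 0 in red. An exact 0 can also stand for a failed estimate.

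Other genes near the top of the ranking were called the same way at both stages. Solyc06g060570 was 39.8-fold higher in red at color break (5.32 ± 0.20, adjusted p = 1.6e-10) and 8.06-fold at maturity. The oxidoreductase gene Solyc06g083490 was at 62.0, 56.0 and 57.6 FPKM in yellow and 3.28, 3.38 and 3.7 in red (-4.08 ± 0.31, adjusted p = 1.61e-07). Solyc09g092540 (chromosome 9, 72064637 to 72067193), near the xyloglucan gene Solyc09g092520 (72053343 to 72055598), was at 6.08, 5.77 and 6.31 FPKM in yellow and 0, 0.0928 and 0.105 in red (-6.51 ± 0.61, adjusted p = 1.56e-06), so these near neighbours differed in opposite directions.

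The share of genes called varied along the chromosomes. Chromosome 9 had the highest share, 109 of 1158 tested genes (9.41%), and chromosome 7 the lowest, 50 of 1180 (4.24%). Of 105 windows of 5 Mb with at least 20 tested genes, the median share was 5.36% and 9 windows had no call. The 5 highest were chromosome 11 from 45 to 50 Mb with 8 of 34 genes (23.5%), chromosome 9 from 70 to 75 Mb with 43 of 205 (21.0%), chromosome 3 from 5 to 10 Mb with 19 of 91 (20.9%), chromosome 11 from 10 to 15 Mb with 8 of 41 (19.5%) and chromosome 6 from 30 to 35 Mb with 16 of 93 (17.2%). The sixth had 14.3%. The chromosome 9 window holds the glucosyltransferase, the pectate lyase, the ribosomal and both xyloglucan-neighbour genes named above. With a minimum of 5 FPKM in 3 libraries it held 27 calls.

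**Figure D4:**
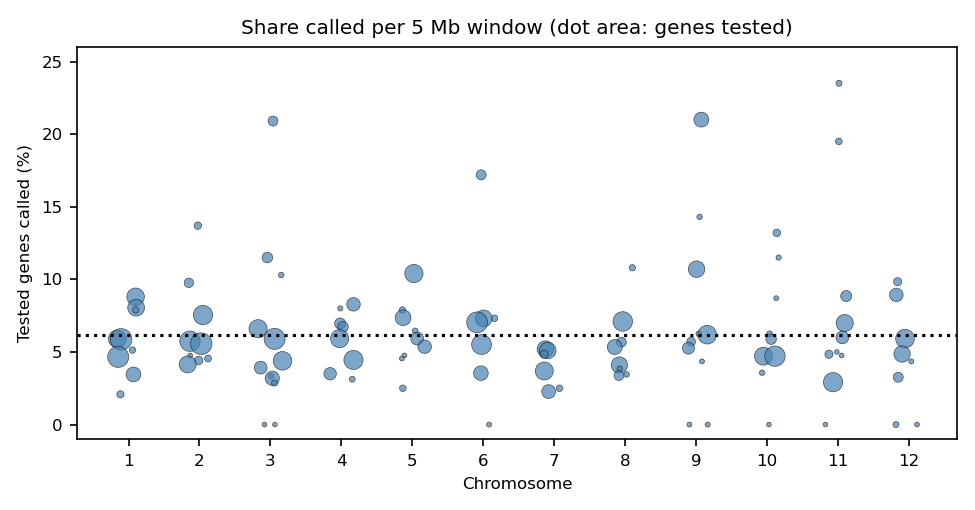
Percentage of tested genes called at color break in each 5 Mb window, by chromosome, with dot area in proportion to the number of genes tested and small sideways shifts to separate dots. The dotted line is the 6.20% over all genes; the windows at 17.2% or more lie on chromosomes 3, 6, 9 and 11.

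At maturity, in libraries that are not part of the color break contrast, edgeR called 1781 genes (11.1%), 521 higher in red (3.26%) and 1260 lower (7.89%). Of the 658 genes higher in red at color break, 150 were higher again, 196 were lower and 312 were not called. Of the 333 lower ones, 172 were lower again, 24 were higher and 137 were not called. In all 322 calls (32.5%) had the same direction at both stages and 220 (22.2%) the opposite one, and the difference between the stages was itself called for 560 of the 991. Over all genes tested that difference was called for 1954 (12.2%). Both stages entered 1 fit and share its estimate of the spread.

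Functions differed in what was seen again. At maturity, red was the lower line for all 8 seed genes and for 12 of the 16 photosystem genes called higher in it at color break. Of the 14 nucleosome genes 11 were lower at both stages, as were 5 of the 11 DNA replication genes. Of those 5, Solyc01g066613 was near 0 in both lines at maturity, with 6, 5 and 7 counts in yellow and 0, 0 and 0 in red. Of the 11 chitin and glucan genes 2 were higher again, 2 were lower and 7 were not called. In the 5 windows with the highest share of calls, 53.2% of 94 calls had the same direction at maturity, against 30.3% of 897 elsewhere, but the windows differed. The share was 73.7% in the chromosome 3 window and 58.1% in the chromosome 9 window. On chromosome 11 it was 25.0% from 45 to 50 Mb and none from 10 to 15 Mb.

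**Figure D5:**
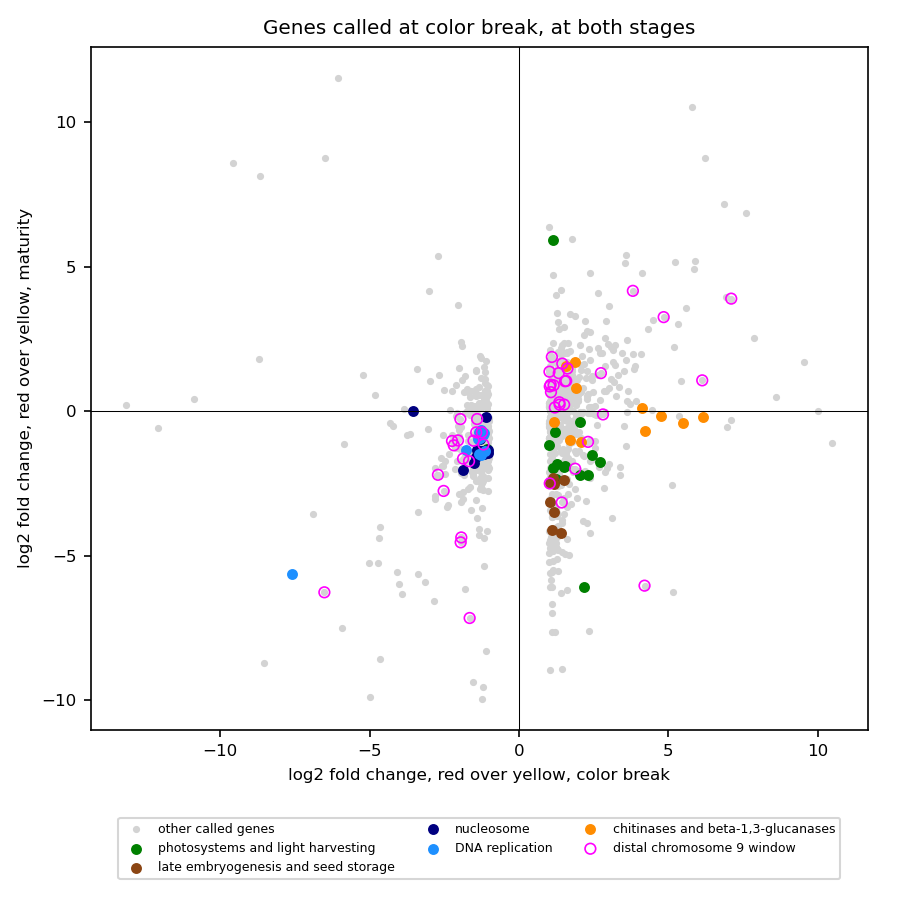
Log2 fold change of red over yellow at color break (horizontal) and at maturity (vertical) for the 991 genes called at color break, 1 point per gene, with 5 lists and the chromosome 9 window from 70 to 75 Mb marked. All seed genes and most photosystem genes lie at lower right, nucleosome and DNA replication genes at or below 0 on the left.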

How the data were processed

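Messenger RNA captured on oligo(dT) was sequenced from 12 tomato fruit libraries. The submitters' processing notes name HISAT2 2.2.1, StringTie 2.1.6, cutadapt 1.9, edgeR and DESeq2. What each tool did and the use of strand in counting are not stated there, and the genome build is not given in the sources used here. One table deposited by the authors has a whole-number read count and an FPKM value per gene and library, and coordinates are those of that table. Groups came from the labels.

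Counts were fitted for all 12 libraries with a mean per group and TMM scaling (edgeR 4.0.16, glmQLFit and glmQLFTest, R 4.3.3), with the contrasts red minus yellow at each stage and their difference. The script was tested on simulated data. The deposited FPKM values served for the filter, the levels and limma 3.58.1 on log2(FPKM + 1) or log2(FPKM + 0.1). DESeq2 1.42.0, other scalings, filters and left-out libraries were alternatives. A standard error is the absolute log2 fold change over the root of F. Lists and GO terms were counted, without a set test.

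Lists and members were chosen with earlier results of these data known. Named genes were the 12 largest rises and falls among annotated genes of at least 5 FPKM and up to 3 called members per list with groups that do not overlap, flavonoids set aside in the former. Of 60 genes printed, 39 follow that rule, PSY1, ACS2 and ACO1 were always named, and 18 were chosen after their values were seen. Outside that count, Solyc02g036350, Solyc01g006540, Solyc01g099180, Solyc05g005680, Solyc03g115220, Solyc03g097030 and Solyc01g079620 are also printed and follow the rule. RIN, NOR, CNR and TAGL1 were not matched by symbol and are not reported.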

Additional observations from a re-analysis of the deposited data

Results flagged for a closer look

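For the genes below, the difference between red and yellow itself differed between the stages by edgeR's test of maturity minus color break (1954 genes, 12.2% of those tested). The values are differences of log2 fold changes with red over yellow, a negative one meaning a smaller or opposite excess of red at maturity.

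Among chitin and glucan genes it was -6.34 for Solyc07g009530, -5.89 for Solyc10g017980, -4.92 for Solyc01g059965, -4.90 for Solyc10g017970, -3.99 for Solyc10g055800, -3.15 for CHI3 and -2.70 for Solyc04g016470. Other defence-related genes gave -7.37 for Solyc09g007020, -7.48 for Solyc10g075150, -3.34 for Solyc08g080630, -4.09 for Solyc12g098615 and -11.58 for Solyc09g084450, where the fitted value depends on how a group at 0 counts is treated. The WRKY genes Solyc05g015850, Solyc01g095630 and Solyc02g093050 gave -3.25, -1.97 and -2.17. Peroxide metabolism gave -7.67 for Solyc10g007600 and -2.39 for the catalase gene Solyc12g094620.

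Among hormone genes the values were -4.83 for AOS2, -3.82 for the gibberellin oxidase gene Solyc07g056670, -2.70 for CYP707A2, -2.60 for the auxin carrier gene Solyc05g008060, -1.88 for ACO1 and -1.46 for NCED1. Photosystem genes gave -4.50 for Solyc06g082940, -3.53 for PSBO, -3.43 for Solyc02g079950 and -1.95 for psaD, and in carbon fixation Solyc04g006970 gave -1.09 and RBCS-2A -3.14. Seed genes gave -5.59 for Solyc06g069260, -4.67 for Solyc03g119820 and -3.86 for Solyc09g082350. In the wall lists XTH1 gave -4.21, Solyc09g091430 -3.87, PG2 -3.37 and Solyc09g092520 -1.42. Transport and other enzymes gave -5.32 for the water channel gene Solyc06g072130, -3.55 for Solyc04g077050, -2.31 for Solyc06g060570 and -1.85 for Solyc09g059170.

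Positive values, from genes lower in red at color break, were 4.73 for the polygalacturonase gene Solyc05g005170 and 3.56 for Solyc02g021350. At maturity Solyc05g005170 was still lower in red, but less so (-1.12), and Solyc02g021350 was not called (0.01).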

How the results depend on the processing

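No result changed direction under any alternative. With a minimum of 5 FPKM in 3 libraries, 485 genes were called (336 higher and 149 lower in red), among them 10 photosystem genes, 6 of photosystem I, 11 proteases (inhibitors included, 20 with the settings of the report), 2 DNA replication genes lower, 1 WRKY gene and 27 in the chromosome 9 window, with 171 the same way and 128 the opposite way at maturity. With limma on log2(FPKM + 1) there were 519 (360 and 159), 13 proteases, 7 of photosystem I, 2 DNA replication genes, 141 the same way and 81 the opposite way, and 13 single genes lost their call. With limma on log2(FPKM + 0.1) 5 seed genes were called. Without a minimum change the counts were 6632 (3494 and 3138), 39 photosystem, 17 photosystem I, 38 nucleosome, 42 DNA replication, 63 protease, 46 cytochrome P450, 30 abscisic acid and 17 seed genes, 125 in the chromosome 9 window, 2764 the same way and 1703 the opposite way. Fewer genes tested, or the change asked for, sets the size of the first and last of these by construction, and the cause was not tested for limma. Without any filter 1349 genes were called, and DESeq2 called 936, its adjusted p being NA for 25 of the 991.

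Leaving out 1 library at a time, those of maturity included (chosen after seeing the data), gave 952 to 1007 calls, 613 to 672 higher and 326 to 342 lower. The ranges were 14 to 17 photosystem, 9 to 12 photosystem I, 12 to 14 nucleosome, 10 to 13 DNA replication, 10 to 11 chitin and glucan, 17 to 20 protease (inhibitors included), 17 to 19 cytochrome P450, 10 to 13 abscisic acid, 4 to 5 WRKY and 6 to 8 seed genes, 41 to 44 in the chromosome 9 window, and 306 to 329 the same and 198 to 242 the opposite way at maturity; 242 was without replicate 1 of red at maturity.

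With the replicate number as a block 983 genes were called against 991. Libraries with the same number did not deviate together (correlations 0.01, -0.069 and 0.008, against -0.121 to 0.108 for different numbers). No strong shared deviation was seen, but this cannot tell whether the numbers pair the samples. Depth limits genes with few counts, such as those at 0 in 1 line.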

Other observations

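Further counts at color break came from the transcription factor column and from GO terms not described above, some of whose genes are also in the lists. By the transcription factor column of the deposited table, 24 ERF genes were tested, of which 6 were higher in red and 1 lower (this family was looked at after its values were seen). Among GO terms, 4 of 15 genes of sterol metabolism and 4 of 16 with acid phosphatase activity were higher in red and none lower. The term for monooxygenases that use NAD(P)H had 7 of 22 higher and none lower. On the other side, 4 of 18 genes of cell wall biogenesis were lower and 2 higher, close to the counts of xyloglucan metabolism, and 6 of 34 chromosome genes were lower with none higher. The called genes with no symbol, description or GO term numbered 265 of 991.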
